A study of Mus musculus with 6 samples.

Results

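The nuclear-encoded subunits of the mitochondrial respiratory chain were described complex by complex in mouse embryos at the 4-cell stage. Members were taken by symbol, as genes named Nduf followed by a, b, c, s or v and a number (complex I), Uqcr (complex III), Cox4 to Cox8 with a letter a to c (complex IV) and Atp5 with a letter (complex V, the ATP synthase), leaving out symbols that end in -ps. The rule found 79 of the 46072 genes in the tables: 37 of complex I, 9 of complex III, 16 of complex IV and 17 of complex V. It used names only and no measured value. It leaves out complex II and the subunit genes Cyc1, Cox4i1, Cox4i2 and Ndufab1. It takes in Atp5s and Atp5sl, which are no subunits of the ATP synthase, and Ndufa4, whose protein is now placed with complex IV.

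The respiratory chain sits in the inner mitochondrial membrane. Complex I takes electrons from NADH, complex III passes them from ubiquinol to cytochrome c, and complex IV hands them to oxygen. All of these pump protons, and complex V lets protons back to make ATP. Complexes I, III, IV and V are built from subunits of both genomes, with mitochondrial DNA encoding the catalytic core of complex IV, part of the membrane arm of complex I, cytochrome b of complex III and membrane subunits of complex V, and the nucleus the remaining subunits. The cleavage-stage embryo inherits its mitochondria from the oocyte and relies on pyruvate oxidation.

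RNA came from 3 control libraries and 3 libraries from embryos whose zygotes had been microinjected with siRNA against Son, a nuclear speckle protein that acts in pre-mRNA splicing. Strain, the control injection, the number of embryos per library and whether libraries came from separate litters do not appear among the labels. The p-values therefore describe how far these libraries spread, which may be technical. The cDNA was prepared by Smart-Seq2, an oligo(dT)-primed method that covers whole transcripts and does not mark the strand. Levels are given in CPM, estimated counts scaled to library size with edgeR's TMM factors.

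Total estimated counts were 104634855 to 118865650 units per library, and the members took 0.326% to 0.522% of them in controls and 0.47% to 0.531% after siRNA. Son had 249, 322 and 332 CPM in controls and 41, 28 and 25.1 CPM in siRNA libraries (log2 -3.26, SE 0.272, edgeR adjusted p = 0.00991); without siRNA library 1, 2 or 3 the edgeR adjusted p was 0.0648, 0.0709 or 0.136. The 7 markers of the 4-cell embryo were detected in every library except Zar1, at 0 in control 1. They summed to 2306 to 4366 CPM in controls and 1616 to 1930 CPM after siRNA. Nearly all of it was Dppa2 and Dppa3, and Dppa2 had 1808 to 3267 CPM in controls and 878 to 990 CPM after siRNA. Of the 7 markers, 4 had log2 fold changes below 0 and 3 above. Cumulus cell markers summed to 6.53 to 18 CPM and 19.8 to 27.8 CPM, nearly all of it Amhr2, while Fshr, Foxl2, Lhcgr, Cyp11a1 and Inhba were at 0. Sperm markers stayed at or under 1.14 CPM and blood markers at or under 12.1 CPM in every library, with Ptprc at 0; the part of these markers in the results below was not tested. In such bulk libraries, fewer cells of a type and less RNA per cell cannot be told apart.

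The comparison asked whether transcripts of the chain differed between embryos with and without Son siRNA. Single subunits stood on both sides: Ndufv1, Cox6a1, Ndufb7 and Uqcrc1 were lower on average after siRNA, and Ndufa8, Uqcr10, Cox6b2 and Ndufa1 were higher. In the quasi-likelihood test of edgeR, adjusted by Benjamini-Hochberg over all 17788 genes tested, 0 of the 76 tested members passed at 0.05, where 0.899% of all genes were called lower and 0.0899% higher. At an unadjusted p under 0.05 there were 5 lower and 2 higher members, against 8.86% and 5.88% of all genes. DESeq2's Wald test called 2 members lower, Cox6a1 (adjusted p = 0.0065) and Ndufv1 (adjusted p = 0.0127), and 0 higher, where it called 4.63% of all genes lower and 2.28% higher (6.9% in all). Without siRNA 1 or siRNA 3 DESeq2 called 0 members, and without control 2 or control 1 it no longer called Ndufv1. The 2 groups had no overlap for 6 members, 3 lower and 3 higher after siRNA. That is 7.89% of those tested, below the 23.7% of all genes.

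The fold changes of the 76 tested members were split evenly, 38 below 0 and 38 above, with a median log2 fold change of -0.00 beside 0.02 over all genes tested. The medians were 0.03 for complex I, 0.37 for complex III, 0.33 for complex IV and -0.10 for complex V. With total counts in place of TMM factors the median of all genes moved to 0.31, and those of the complexes to 0.35, 0.63, 0.63 and 0.19 in the same order. A fitted difference of at least 2-fold in either direction was seen for 7 of the 76 members, beside 4714 of the 17788 genes tested. The remaining 3 members, Ndufa4l2, Cox8b and the second of a pair of entries named Uqcrc1, were at 0 in all 6 libraries. A floor of 3 read pairs, taken as 12 units, corresponds to 0.101 to 0.115 CPM.

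**Figure D1:**
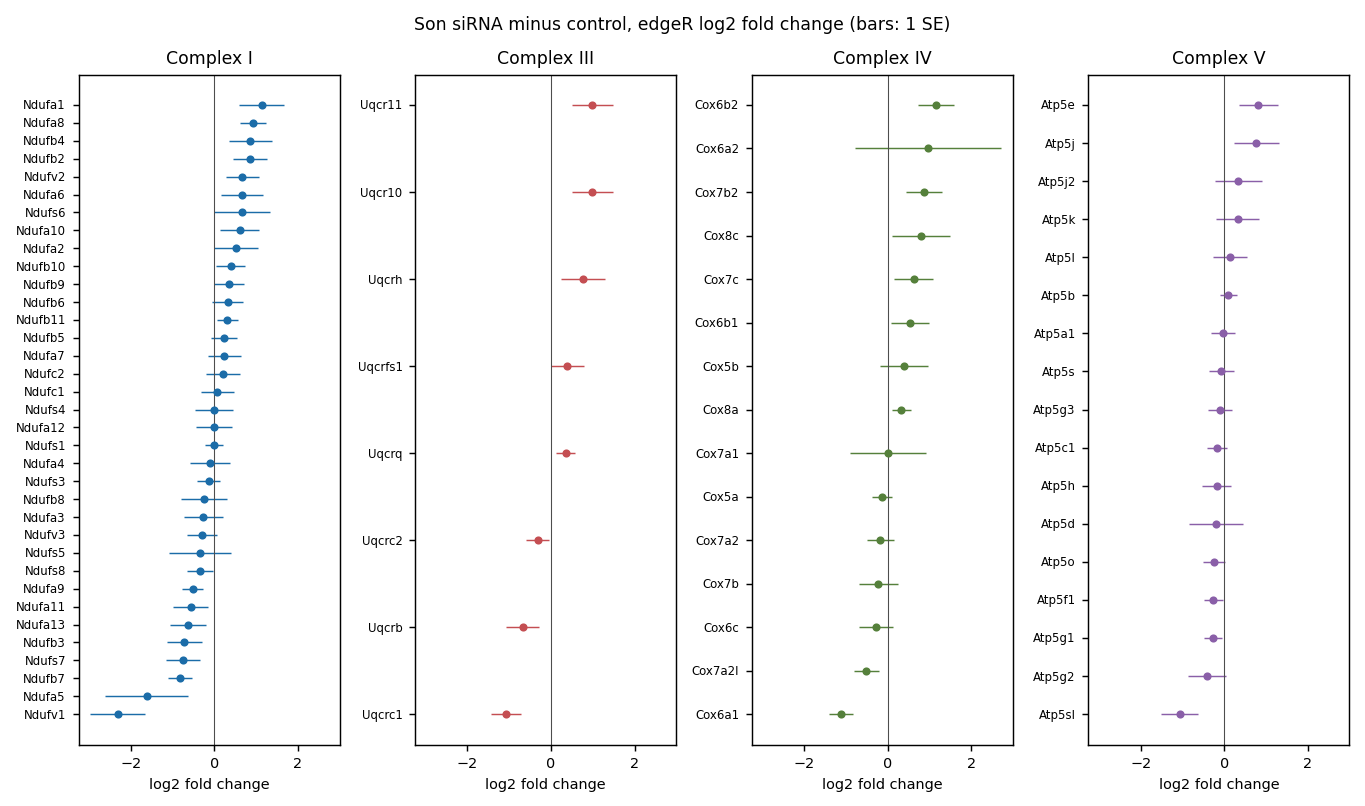
Log2 fold change of Son siRNA minus control for tested members, by complex, as points with bars of 1 SE from edgeR. The points of every complex lie on both sides of 0, from Ndufv1 at -2.31 to Cox6b2 at 1.16, and none passed the adjusted threshold; 1 member of complex I is not shown.

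Complex I is an L-shaped assembly whose nuclear-encoded core subunits carry the flavin and the iron-sulfur clusters, surrounded by accessory subunits. Ndufv1, the core subunit that binds NADH and the flavin (chromosome 19, 4007384 to 4012806 on GRCm38), had the lowest fold change of all members. It had 4.17, 4.67 and 1.51 CPM in the controls and 0.842, 0.94 and 0.31 CPM after siRNA. The groups did not overlap, and control 3 was the closest to the siRNA libraries. The fitted log2 difference was -2.31 (SE 0.656; edgeR adjusted p = 0.138).

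The partners of Ndufv1 in the electron-input module did not share its low value. Ndufs1, which holds most of the iron-sulfur clusters of that module, averaged 58.6 ± 4.42 CPM in the control group and 58.2 ± 6.39 CPM in the siRNA group (SD, n = 3 each; log2 -0.01). Per length, in a ratio chosen after the values were seen, Ndufs1 was 8.39 to 24.6 times Ndufv1 in controls and 39.1 to 132 times in siRNA libraries. Ndufv2, the third subunit of that module, had a log2 fold change of 0.67. Over the 7 nuclear core genes the median was -0.14.

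Among accessory subunits, Ndufa8, a twin CX9C protein of the intermembrane space (chromosome 2, 36036326 to 36049406), had 15.3, 13.5 and 13.4 CPM in controls. After siRNA it had 21.9, 37.5 and 21.3 CPM. All 3 siRNA libraries were above all controls, with siRNA 2 well above the rest, and the log2 fold change was 0.93 (SE 0.314, edgeR adjusted p = 0.208). Ndufb7, another twin CX9C subunit (chromosome 8, 83566671 to 83571626), showed the opposite order.

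Ndufb7 had 85.6, 48.1 and 51.2 CPM in controls and 32.9, 37.5 and 33.3 CPM after siRNA. The siRNA values lay close together and below every control, and the log2 fold change was -0.83 (SE 0.285, edgeR adjusted p = 0.213). Ndufa1, a small membrane-arm subunit encoded on the X chromosome (37187588 to 37191163), had 6.22, 1.73 and 2.21 CPM in controls and 5.42, 9.61 and 7.23 CPM after siRNA. Control 1 lay among the siRNA libraries while the other controls lay below them. Its log2 fold change was 1.13 (SE 0.536, edgeR adjusted p = 0.374), and 1.91 without control 1.

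Over the 29 tested accessory genes 13 fold changes were below 0 and 16 above, with a median of 0.20. Ndufa5 varied within both groups, with 22.3, 3.88 and 4.87 CPM in controls and 0.85, 8.3 and 0.914 CPM after siRNA. Control 1 and siRNA 2 stood several times above their own group. In Ndufs5 control 1 and siRNA 2 were again the highest of their groups, with 17.3, 2.77 and 2.59 CPM in controls and 3.78, 9.55 and 4.58 CPM after siRNA; its log2 fold change was -0.34 with all libraries and 1.16 without control 1.

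Complex III holds the pair of core proteins Uqcrc1 and Uqcrc2, the Rieske iron-sulfur protein Uqcrfs1 and small subunits. Uqcrc1 (chromosome 9, 108936633 to 108949623) had 96.9, 65.1 and 36 CPM in controls and 26.5, 36.7 and 30.9 CPM after siRNA. Controls 1 and 2 lay above all siRNA libraries, and control 3 lay inside their range. The log2 fold change was -1.07 (SE 0.36, edgeR adjusted p = 0.205).

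Its partner Uqcrc2 averaged 88 ± 23.2 CPM in controls and 70.5 ± 14.4 CPM in siRNA libraries (log2 -0.32), although 19.7% of its exonic bases overlap Pdzd9 on the opposite strand. The Uqcrc2 level per length was 0.935 to 1.93 times that of Uqcrc1 in controls and 1.88 to 2.05 times after siRNA. Uqcrfs1 had a log2 fold change of 0.39.

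The small subunits of complex III leaned the other way, except Uqcrb. Uqcr10 (chromosome 11, 4701973 to 4704342) had 15.6, 5.12 and 4.27 CPM in controls and 15.6, 18.1 and 15.9 CPM after siRNA. Control 1 and siRNA 1 differed only beyond the printed digits, while controls 2 and 3 lay far below the siRNA libraries. Its log2 fold change was 0.99 (SE 0.494, edgeR adjusted p = 0.396) and 1.82 without control 1.

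Uqcr11 had 5.59, 2.13 and 2.99 CPM in controls and 4.7, 10.1 and 6.49 CPM in siRNA libraries (log2 0.99, SE 0.481, edgeR adjusted p = 0.384), again with control 1 inside the siRNA range. Uqcrh, the hinge protein that docks cytochrome c1, had a log2 fold change of 0.77 and Uqcrq of 0.35. Uqcrb, which helps form the ubiquinone pocket, had 214, 82.5 and 113 CPM in controls and 69, 126 and 59.8 CPM in siRNA libraries (log2 -0.68, SE 0.403, edgeR adjusted p = 0.492). Its groups overlapped. The median of the 5 small subunits was 0.77, beside -0.32 for the 3 tested core and Rieske genes, a grouping drawn up after the values were seen.

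Cytochrome c oxidase, complex IV, has nuclear subunits around a core encoded by mitochondrial DNA, several of them in paired tissue isoforms. Cox6a1, the isoform of subunit 6A found in most tissues (chromosome 5, 115345642 to 115348981), had 126, 102 and 73.4 CPM in controls. After siRNA it had 39.4, 58.2 and 41.3 CPM. All siRNA libraries lay below all controls, and the fitted log2 difference was -1.12 (SE 0.281; edgeR adjusted p = 0.105). That was the smallest p of all members.

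Upstream of Cox6a1 lay a pair of NRF1 motifs (GCGCA and GCGC with 1 base of any kind between them), shown here with the ETS motif (CCGGAAG) upstream of 3 other members, which were picked after their higher values were seen. Members whose promoters hold the ETS pattern had fold changes in both directions. Lower were Cox6a1 (log2 -1.12), Ndufb7 (-0.83), Ndufs8 (-0.34), Atp5h (-0.18) and Ndufs3 (-0.14). Higher were Uqcr11, Atp5e, Uqcrh, Atp5j, Cox6b1, Cox8a, Ndufb6, Atp5k and Atp5l. The ETS pattern of Cox6a1 lies outside the stretch shown. The NRF1 pattern was also in promoters of members in both directions. Higher were Ndufa8 (log2 0.93), Ndufb4 (0.86), Ndufa6 (0.66), Ndufs6 (0.66) and Atp5k (0.32). Lower were Ndufa5, Cox6a1, Uqcrc1, Ndufa11, Atp5g2, Ndufs5, Atp5o, Atp5h, Atp5c1 and Atp5g3. The part of either motif in the fold changes was not tested. NRF1 and the ETS factor GABP are textbook activators of nuclear respiratory genes. Capitals mark the motif on either strand, and the bases are RefSeq's, GRCm38.p6, minus strand, outside the annotated gene.
Cox6a1, chr5:115349046-115349140: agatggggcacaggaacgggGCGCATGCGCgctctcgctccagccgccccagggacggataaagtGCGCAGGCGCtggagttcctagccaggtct
Uqcr11, chr10:80406861-80406907: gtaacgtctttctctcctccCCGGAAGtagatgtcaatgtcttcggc
Uqcrh, chr4:116075072-116075100: actacgaggagtatgccgcaCTTCCGGcc
Atp5e, chr2:174464177-174464223: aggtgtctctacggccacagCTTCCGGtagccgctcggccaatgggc

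Promoters of 250 bases before to 50 bases after the start were at hand for 66 members. The NRF1 pattern was in 15 of them (22.7%), against 5.19% of 27025 genes with a promoter, and the ETS pattern in 14 (21.2% against 9.93%). Those 27025 genes were not limited to genes tested here or to protein-coding ones. A gene counted if any of its starts had a match. The YY1 pattern AAGATGGCG was in 8 (12.1% against 1.64%). In all, 8 patterns were searched on both strands, and these 3 were picked for description after their shares were seen. The others were a stricter NRF1 form with T between (7.58% against 1.07%) and a longer YY1 form with GC added at the end (7.58% against 0.755%), whose matches are also matches of the shorter patterns, and TCAAGGTCA (1.52% against 0.466%), TGACGTCA (6.06% against 2.03%) and GGGGCGGGG (16.7% against 12.9%). The median log2 fold change was -0.18 with and 0.08 without the NRF1 pattern, 0.32 with and -0.07 without the ETS pattern, and 0.03 with and -0.01 without the YY1 pattern. A match is a run of letters and not a measured binding site.

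Of the other complex IV subunits, Cox6b2, the testis isoform of subunit 6B (chromosome 7, 4751792 to 4753094), had 3.65, 1.86 and 1.93 CPM in controls and 5.07, 4.83 and 6.71 CPM after siRNA. The siRNA libraries were all above the controls, and the log2 fold change was 1.16 (SE 0.429, edgeR adjusted p = 0.252). Its more abundant partner Cox6b1 had a log2 fold change of 0.53. Per length Cox6b1 was 6.38 to 9.27 times Cox6b2 in controls and 3.6 to 8.17 times after siRNA, ranges that overlapped.

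Cox7b2 had 7.59, 5.4 and 6.56 CPM in controls and 6.31, 18.9 and 10.6 CPM in siRNA libraries (log2 0.87, SE 0.431, edgeR adjusted p = 0.39). The siRNA values were spread widely, and siRNA 1 lay among the controls. Cox7a2l, which has a role in joining complexes III and IV into supercomplexes, had 114, 69.9 and 104 CPM in controls and 51.6, 94.2 and 57.1 CPM in siRNA libraries (log2 -0.51, SE 0.305, edgeR adjusted p = 0.503). The tables list the same units for Cox7a2l and Uqcrc2 in controls 1 and 2 and different units in the other 4 libraries.

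In complex V, Atp5a1 and Atp5b form the catalytic head, Atp5c1 the rotor shaft and the Atp5g genes the rotating c ring. The largest difference belonged to Atp5sl, a gene named for its likeness to Atp5s whose protein acts in complex I assembly (chromosome 7, 25619414 to 25625551). It had 16.3, 17.2 and 6.7 CPM in controls and 8.28, 4.31 and 6.5 CPM after siRNA. Control 3 lay inside the siRNA range, and the log2 fold change was -1.07 (SE 0.441, edgeR adjusted p = 0.303).

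Atp5e, the small epsilon subunit of the central stalk, had 9.7, 4.64 and 2.83 CPM in controls and 9.51, 11.8 and 8.86 CPM in siRNA libraries (log2 0.81, SE 0.466, edgeR adjusted p = 0.476). Atp5j, coupling factor 6 of the peripheral stalk, had 37.3, 9.82 and 12.3 CPM in controls and 20.1, 48.5 and 32.5 CPM in siRNA libraries (log2 0.77, SE 0.535, edgeR adjusted p = 0.57). In both, control 1 lay inside the siRNA range and the other controls below it. Of Atp5j's exonic bases, 12.7% overlap Gabpa on the opposite strand, and reads of the pair cannot be told apart without strand.

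The main subunits of the head had fold changes near 0. Atp5b had 555, 786 and 582 CPM in controls and 666, 650 and 727 CPM in siRNA libraries (log2 0.09), and Atp5a1 averaged 54.8 ± 21.2 and 53.8 ± 0.829 CPM (SD, n = 3 each; log2 -0.03). Per length Atp5b was 15.8 times Atp5a1 in controls (12.8 to 19.1) and 16.3 times after siRNA (15.7 to 17.6), although the proteins are present in equal number in the enzyme. Atp5g1 had 279, 224 and 203 CPM in controls and 211, 185 and 190 CPM in siRNA libraries (log2 -0.27, SE 0.205, edgeR adjusted p = 0.607), and with total counts its log2 fold change was 0.03. The 3 c-ring genes all had fold changes below 0 with TMM factors.

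**Figure D2:**
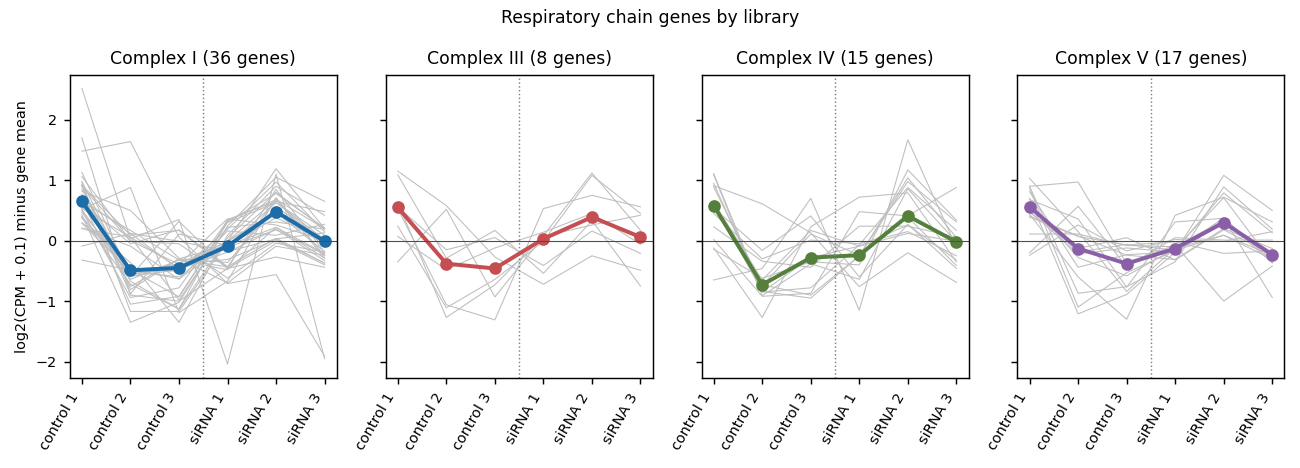
Level of each tested member in the 6 libraries, as log2(CPM + 0.1) minus the member's own mean, by complex, with a grey line per member and coloured points for the median of the complex. Control 1 and siRNA 2 tend to hold the high values, with medians over all members of 0.62 and 0.39, while controls 2 and 3 have medians of -0.48 and -0.39.

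Levels differed far more between members than between groups. Per length, as CPM per kb of the principal transcript of median length, the highest control means were those of Ndufc1 in complex I (145 ± 82.4), Uqcrq in complex III (359 ± 67), Cox5a in complex IV (622 ± 163) and Atp5g1 in complex V (340 ± 56.4; SD, n = 3 each). The lowest tested ones were Ndufa10 (1.39 ± 0.696), Uqcr11 (8.02 ± 4.05), Cox6a2 (0.178 ± 0.177) and Atp5d (1.73 ± 0.824). The order at the top of complex V is not resolved, since Atp5b at 335 ± 65.7 and Atp5c1 at 320 ± 71.6 lie within the spread of Atp5g1. Ndufv1, with 2.08 CPM per kb, was next to the lowest tested member of complex I.

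These levels depend on which transcript gives the length. With the longest principal transcript instead, 17 of 78 members had another length. Ndufc1 dropped to 36.5 CPM per kb and Ndufa9 was highest in complex I (99.1). Uqcrq dropped to 95.6 and Uqcrb was highest in complex III (255), and Atp5g1 dropped to 49.9, leaving Atp5b highest in complex V (335). Cox5a remained the highest of complex IV at 622, and Ndufa10, Uqcr11, Cox6a2 and Atp5d the lowest tested of their complexes.

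Paralogs were far apart in level, with the common isoform above the restricted one in most pairs. Cox6a1, Cox7a2 and Cox8a were the abundant forms, while the heart and muscle forms Cox6a2 and Cox7a1 averaged 0.121 and 0.681 CPM in controls and Cox8b was at 0. Cox6a2 was at 0 in siRNA 1, and its mean in both groups is near the floor. Cox7a2 was 111 to 255 times Cox7a1 per length in controls and 102 to 268 times after siRNA, and Cox8a was 75.7 to 269 times and 80.1 to 167 times Cox8c, the testis form. Cox7b and Cox7b2 were close, at 1.11 to 3.08 times in controls and 0.624 to 1.62 times after siRNA. Ndufa4 averaged 28.8 CPM in controls where Ndufa4l2, its hypoxia-induced paralog, was at 0.

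The 3 Atp5g genes encode the same mature c subunit behind different import sequences. By the median-length transcript Atp5g1 made up 73.6% of their level per length in controls and 72.1% after siRNA, Atp5g3 18.8% and 20.8%, and Atp5g2 7.54% and 7.08%. By the longest transcript the control shares were 31.3% for Atp5g1, 54.6% for Atp5g3 and 14% for Atp5g2, so which gene leads rests on that choice. Of the 100-base stretches of Atp5g2, 34.7% also occur in other genes, which makes its level uncertain.

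**Figure D3:**
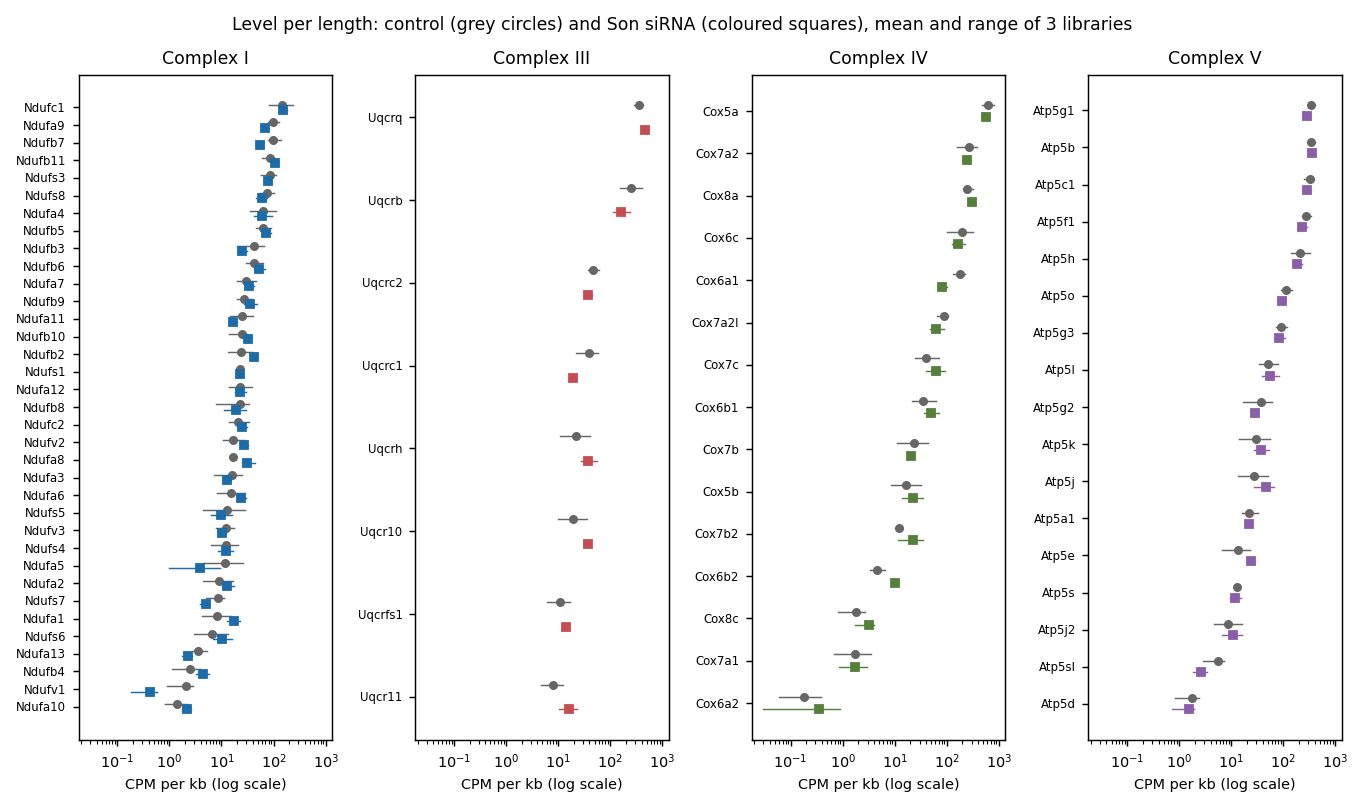
Level per length of members by complex (1 member of complex I is not shown) on a log axis in CPM per kb, with the mean of each group as a point and the lowest to highest library as a bar; a library at 0 is drawn at the left end of its bar. Within a complex the means span from Cox6a2 at 0.178 to Cox5a at 622 CPM per kb in controls.

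The members shared an order of libraries. Control 1 was the highest control for 67 of 76 members (88.2%, against 33.2% of all genes tested), and siRNA 2 the highest siRNA library for 67 (88.2% against 37%). Both libraries were singled out because they looked high, so these shares are descriptions. Over all 76 tested members the median SD in log2 CPM was 0.704 within controls and 0.304 within siRNA libraries. Of these members, 54 were over 10 CPM in controls. Genes at 10 CPM or more gave 0.424 and 0.216. The sets were not matched in level or in the value added before taking logs. Whether the members spread more than other genes of their level was therefore not tested. Mitochondrially encoded counts did not rank the controls in the same way, with 15.3%, 9.79% and 16% of all counts in controls 1 to 3, but siRNA 2 had the highest share of the siRNA libraries, 17.5% beside 13.8% and 13.2%.

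The excess of control 1 was greatest among short transcripts. The members had a median transcript length of 698 bases and 4 exons, against 2708 bases and 9 exons over protein-coding genes tested. In 27 members under 600 bases control 1 exceeded the mean of the other controls by a median of 1.31 on the log2(CPM + 0.1) scale, in 26 members of 600 to 1000 bases by 0.87 and in 23 longer members by 0.63. All protein-coding genes of the same lengths gave 0.68, 0.57 and -0.09. From short to long, control 1 was the highest control for 96.3%, 92.3% and 73.9% of members. For all protein-coding genes of those lengths the shares were 66.2%, 58% and 29.1%. The excess of siRNA 2 over the other siRNA libraries was 0.60, 0.65 and 0.42 in members and 0.36, 0.33 and -0.03 in all protein-coding genes. The part of transcript length in the members' fold changes was not tested.

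**Figure D4:**
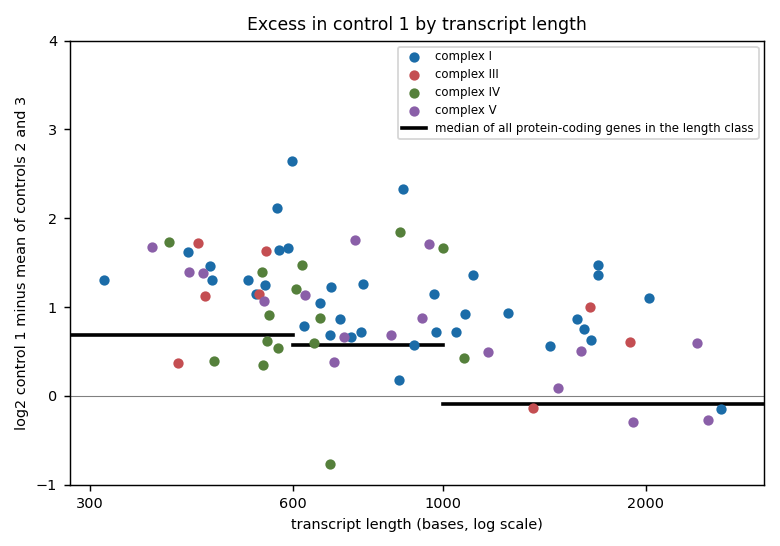
Excess of control 1 over the mean of controls 2 and 3 (log2(CPM + 0.1)) against transcript length in bases on a log axis, 1 point per tested member coloured by complex, with black bars for the median of all protein-coding genes of each length class. Most points lie above 0, and the median of the members falls from 1.31 under 600 bases to 0.63 at 1000 bases or more.

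Without control 1 the picture of the members changed. Control 1 was set apart because the members were high in it, so leaving it out raises their fold changes by that choice. The values without it are descriptions. The median log2 fold change over members was 0.56, with 54 above 0 and 22 below, while that of all genes was 0.04. The medians by complex were 0.61, 0.39, 0.57 and 0.13 for complexes I, III, IV and V. edgeR then called 0 members, where it called 0.304% of all genes lower and 0.0315% higher (0.336% in all). At an unadjusted p under 0.05 there were 24 higher and 2 lower members, against 6.77% and 7.19% of all genes. DESeq2 called 14 higher, among them Uqcr10, Uqcr11, Uqcrh, Cox6b2, Ndufa1, Atp5e and Atp5j, and 1 lower, Cox6a1, against 2.88% and 3.76% of all genes. By length the medians without control 1 were 1.0, 0.26 and -0.01 from short to long members and 0.35, 0.24 and 0.01 over protein-coding genes. Without siRNA 2, the other library set apart as high, the medians were -0.06, 0.27, -0.24 and -0.29 for complexes I, III, IV and V. DESeq2 then called 3 members lower and 0 higher, beside 778 lower and 231 higher of 18862 genes.

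The 5 lower members described above with an unadjusted p under 0.05 had values below 0 without control 1 too. Ndufs5 and others turned to above 0. Without control 1 the log2 fold change was -2.15 for Ndufv1, -0.92 for Cox6a1, -0.69 for Uqcrc1, -0.52 for Ndufb7 and -0.91 for Atp5sl. Over the settings tried, apart from DESeq2 with a library left out, Cox6a1 ranged from -1.32 to -0.85 and Ndufv1 from -2.66 to -1.95. Over the same settings the adjusted p of Cox6a1 ranged from 0.0065, with DESeq2 on all libraries, to 0.433, with edgeR.

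**Figure D5:**
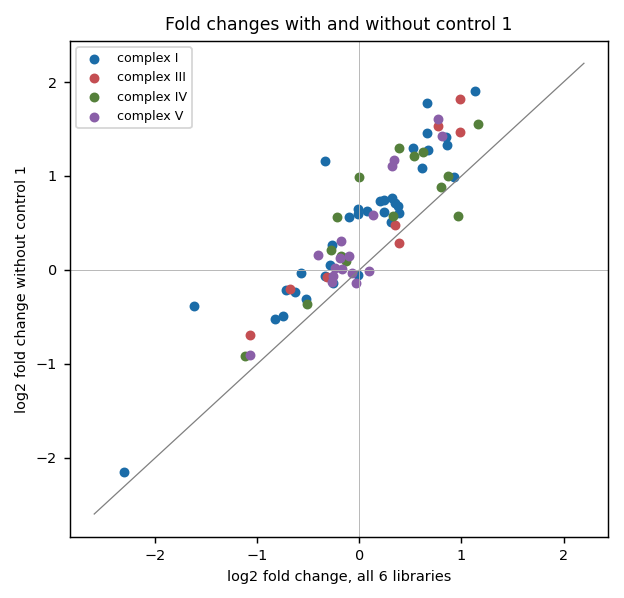
Log2 fold change of each tested member with all 6 libraries (horizontal) and without control 1 (vertical), coloured by complex, with the line of equal values. Most members lie above the line, while Ndufv1 at -2.15 and Cox6a1 at -0.92 stay well below 0 without control 1.

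Genes that serve the chain without matching the symbol rule gave 1 call in edgeR's adjusted test. As a share of those tested, that is close to the 0.989% called over all genes tested. Chchd6, part of the MICOS complex that shapes cristae, had 0.833, 0.687 and 0.374 CPM in controls and 5.7, 7.44 and 6.03 CPM in siRNA libraries (log2 3.34, edgeR adjusted p = 0.0229). Every siRNA library was several times above every control, and the control values of 0.374 to 0.833 CPM rest on few read pairs. The call was lost without siRNA library 1, 2 or 3 (edgeR adjusted p = 0.196, 0.111 or 0.149). The other 9 cristae genes did not pass.

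Over all genes tested, edgeR's unadjusted p was under 0.05 for 8.86% lower and 5.88% higher. DESeq2 called 4.63% of all genes lower and 2.28% higher. In the remaining lists 0 genes passed edgeR's adjusted test. Subunits outside the rule were listed with Cycs and Atpif1, which are no subunits, and complex II with its assembly factors Sdhaf1 to Sdhaf4. The tested numbers were 8 genes of the first list and 8 of complex II. Next were 15, 6, 22 and 3 assembly factors of complexes I, III, IV and V. The last lists were 11 coenzyme Q genes, 12 transcriptional regulators and 13 mitochondrially encoded subunits. The counts of all these lists at edgeR's unadjusted p under 0.05, lower and higher, were 0 and 2, 0 and 1, 1 and 2, 0 and 0, 1 and 1, 1 and 0, 1 and 1, 2 and 0, and 0 and 0 in that order. DESeq2 called 1 complex I assembly factor, 1 complex IV assembly factor and 1 regulator lower and 1 coenzyme Q gene higher.

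Polrmt, the mitochondrial RNA polymerase, had a log2 fold change of -1.95 (edgeR adjusted p = 0.0622) and was the regulator DESeq2 called lower (adjusted p = 6.13e-05). It passed edgeR's threshold with a strict filter (adjusted p = 0.0422), with counts divided by 4 (0.0375) and without mitochondrial, rRNA and pseudogene entries (0.0479). It did not pass in edgeR with the replicate block (adjusted p = 0.145) or without control 1 (0.0964). The highest edgeR adjusted p over the settings was 0.346. Gabpa, the DNA-binding subunit of GABP, had a log2 fold change of -0.82 (edgeR adjusted p = 0.196). Cox19, a copper-handling assembly factor of complex IV, had -1.71 and Acad9, of complex I assembly, -1.08, while Ndufaf6 had 0.87 and Coq4 1.26. Sdhaf1, which helps build the iron-sulfur subunit of complex II, had 1.74, Usmg5, a small membrane subunit of the ATP synthase, 0.94, and Ndufab1, the mitochondrial acyl carrier protein, 1.08. The 13 mitochondrially encoded subunits had a median of -0.06, and siRNA 2 was the highest siRNA library in all 13.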

How the data were processed

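RNA of 6 libraries was compared, 3 control and 3 Son siRNA, grouped by the sample titles. The genome build GRCm38 and the tools StringTie 1.3.3b and HISAT2 2.0.5 come from the submitters' processing notes; for annotation release, filters and counting the labels name none. The authors deposited estimated counts per gene, whole numbers that were not normalized, and these were used as deposited. One read pair was assumed to be worth 4 units. PCR copies without molecular identifiers are not independent molecules, so a floor covers counting error alone.

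edgeR 4.0.16 (R 4.3.3) was run with filterByExpr, TMM, glmQLFit and glmQLFTest without a block, adjusted over all genes at 0.05; DESeq2 1.42.0 was an alternative. Of 46072 genes, 45223 matched GENCODE vM21 (GRCm38), which gave positions and lengths. Members and lists were chosen with earlier results of these data known. Named genes were Son, the 4 members with the smallest p in each complex, the highest and lowest level per length, paralogs, and related genes past the threshold or the 2 with the smallest p of each list. Subgroups, length classes, motifs, the ratios, the libraries set apart and Ndufa5, Ndufs5 and Ndufs1 were chosen after values were seen, as was the median-length transcript in place of the longest. Tested on simulated counts for Son siRNA against control, among 16722 genes edgeR found 85 of the 100 given a 4-fold change and 98 of the 100 given an 8-fold one. Of the 191 calls in the simulation, 8 were unchanged genes. Changed genes were drawn above a minimum level and no change under 4-fold was simulated. The shares found therefore do not cover smaller differences or genes at low levels. One member of complex I is counted in the totals but not reported by itself here.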

Additional observations from a re-analysis of the deposited data

How the results depend on the processing

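edgeR called 0 members in each setting tried. DESeq2 called 2 members lower, and leaving out single libraries gave 0 to 5 lower and 0 to 14 higher with DESeq2, an alternative added after the data were seen. Over all genes the calls lower were 35 with total counts, 91 with no filter, 245 with a strict filter, 823 with DESeq2 and 279 with counts divided by 4; those higher were 7, 9, 43, 405 and 51 in the same order. Leaving out single libraries gave 0 to 231 lower and 0 to 84 higher with edgeR, and 491 to 1287 lower and 97 to 1197 higher with DESeq2. The median of complex I ranged from -0.06 to 0.61 and that of complex IV from -0.24 to 0.57 over left-out libraries. Son ranged from -3.50 to -3.12 over left-out libraries and was -2.97 with total counts. Atp5g1 reversed to 0.03 with total counts, and Atpaf1 to 0.05 with total counts and from -0.61 to 0.08 over left-out libraries; the cause was not tested. The replicate numbers did not pair the libraries: deviations of same-numbered libraries correlated at -0.14, -0.189 and 0.0617, and 1 of 6 libraries correlated best with its own number. With the replicate block 0 genes were called lower and 0 higher, Son had -3.29 (adjusted p = 0.0617) and Chchd6 an adjusted p of 0.0788. Over the 35 named genes other than Son and 523 alternatives, 505 kept direction and call, 10 gained it, 4 lost it and 4 reversed; Son lost its call in 4 settings, the block and without each siRNA library. Low levels such as Ndufv1 after siRNA, near 0.31 to 0.94 CPM, rest on few read pairs.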
